A study of Homo sapiens with 18 samples.

Results

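CCL20 and 7 other genes for chemokines that attract lymphocytes, monocytes or dendritic cells (CCL2, CCL5, CCL28, CXCL10, CXCL11, CXCL16 and CX3CL1) were followed by RNA sequencing in the established cell line OVCAR3, derived from a human high-grade serous carcinoma of the ovary. The genes were taken by their symbols, and all 8 were among the 55765 symbols counted in each of 2 series of libraries. They were chosen by name with results of these data in view, and CCL20 was selected on its difference between non-specific IgA and the other libraries of its series, so that difference is described without a test. In the first series cells received natural human IgA or IgG of no chosen specificity, or were left untreated, and in the second they received IgA against the neurotrophin BDNF, IgA against the tetraspanin TSPAN7, or nothing. Every antibody was given at 0.5 µg/ml, in RPMI with a low share of fetal bovine serum. The incubation is stated as 24 h in the sample descriptions and methods, while another description of the experiments gives a shorter time. The BDNF and TSPAN7 antibodies came from immortalized B cells of ovarian tumours that had been sorted with peptides of these antigens. Each of the 6 groups had 3 replicates of 1 cell line, which the study counts as separate experiments for the first series. The sample labels do not say so, and nothing found states it for the second series, so p-values measure the spread between these samples, which may be technical. Groups were compared only within a series. The comparisons ask how much chemokine message carcinoma cells make when they take up IgA, the antibody that the polymeric immunoglobulin receptor carries across epithelia.

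Chemokines are small secreted proteins that guide leukocytes along a gradient towards the cell that makes them. CCL20 binds CCR6, a receptor of memory T cells, B cells, Th17 cells and immature dendritic cells, and CCL28 is a mucosal chemokine whose receptor CCR10 is carried by IgA plasmablasts. CCL2 recruits monocytes through CCR2, CCL5 recruits T cells and monocytes through receptors that include CCR1 and CCR3, and the interferon-induced CXCL10 and CXCL11 recruit activated T cells and NK cells through CXCR3. CXCL16, the ligand of CXCR6, and CX3CL1 (fractalkine), the ligand of CX3CR1, are made as membrane proteins on a mucin stalk and are released by the proteases ADAM10 and ADAM17.

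The bases just upstream of a gene hold sites that transcription factors can bind, and the promoters of the 4 chemokines that have an entry in the RefSeq table (build GRCh38.p14, 250 bases before and 50 bases after the start, 5′ to 3′ on the strand of the gene) are shown for the genes whose levels moved and for the CXCR3 ligands. Both strands were searched for the NF-kB motif, the interferon-stimulated response element core GAAANNGAA, the STAT motif GAS TTCNNNGAA and the AP-1 motif TGANTCA. The capitals mark the matches, which are matches of letters only, and whether a factor binds them was not tested. No match overlapped another.
CCL20, chr2:227813592-227813891, plus strand: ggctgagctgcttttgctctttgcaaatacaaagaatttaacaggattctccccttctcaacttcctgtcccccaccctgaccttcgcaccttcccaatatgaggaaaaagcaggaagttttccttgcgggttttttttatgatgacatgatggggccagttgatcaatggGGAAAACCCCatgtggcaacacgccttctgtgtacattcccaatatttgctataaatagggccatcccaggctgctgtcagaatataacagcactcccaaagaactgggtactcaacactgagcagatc
CXCL10, chr4:76023448-76023747, minus strand: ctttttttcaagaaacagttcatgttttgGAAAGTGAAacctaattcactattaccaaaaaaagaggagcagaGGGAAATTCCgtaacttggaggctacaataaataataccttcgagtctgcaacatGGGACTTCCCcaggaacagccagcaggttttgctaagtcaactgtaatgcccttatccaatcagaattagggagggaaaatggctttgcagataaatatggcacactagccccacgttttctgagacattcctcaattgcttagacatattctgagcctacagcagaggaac
CXCL11, chr4:76036021-76036320, minus strand: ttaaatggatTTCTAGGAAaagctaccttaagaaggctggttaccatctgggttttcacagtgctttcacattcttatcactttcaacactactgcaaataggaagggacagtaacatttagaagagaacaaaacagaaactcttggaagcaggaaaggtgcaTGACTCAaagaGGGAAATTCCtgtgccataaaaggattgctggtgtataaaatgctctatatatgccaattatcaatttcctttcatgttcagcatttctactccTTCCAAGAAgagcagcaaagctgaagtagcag
CCL28, chr5:43412342-43412641, minus strand: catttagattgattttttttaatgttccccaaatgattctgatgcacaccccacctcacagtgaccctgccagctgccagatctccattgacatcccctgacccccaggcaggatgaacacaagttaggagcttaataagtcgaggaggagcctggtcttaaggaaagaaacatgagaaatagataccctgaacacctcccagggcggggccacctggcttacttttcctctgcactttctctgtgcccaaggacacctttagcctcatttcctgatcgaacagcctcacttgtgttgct
CCL20 held an NF-kB match from -79 to -70 relative to its start. CXCL10 held NF-kB matches from -177 to -168 and from -122 to -113, and a response element core from -221 to -213. CXCL11 held an NF-kB match from -76 to -67, an AP-1 match from -87 to -81, and GAS matches from -240 to -232 and from 19 to 27. Both promoters listed for CCL28 held none of the 4 motifs, which says only that these letters are not in these windows. Among all 35116 promoters of that table, 14% held an NF-kB match, 8.11% the response element core, 7.66% GAS and 7.71% AP-1.

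All libraries were read deeply, the first series at 27920733 to 42371474 counts and the second at 39254350 to 47381836. Spread between replicates was wider in the first series (common dispersion 0.0307) than in the second (0.00303). Non-specific IgA replicate 3 had 19.1% of its counts on mitochondrial genes, against 5.75% to 8.32% in the other first-series libraries. The 8 markers of ovarian carcinoma or epithelium (PAX8, WT1, MUC16, EPCAM, KRT7, KRT8, KRT18 and CDH1) summed to 4261 to 6335 CPM (counts scaled to a common library total) in all libraries.

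CCL20 (ENSG00000115009, GRCh37 chr2:228670455-228682280) was the chemokine with the widest range of levels. The normalised counts, which are counts scaled to the mean library size of a series, were 2449, 2384 and 3215 in replicates 1, 2 and 3 with non-specific IgA. With non-specific IgG they were 44.8, 31.9 and 16.5, and in untreated cells 30.1, 36.99 and 27.4. The IgA libraries lay far above all others, and the IgG and untreated libraries overlapped. As a description, the log2 fold change was 6.40 (SE 0.26, n = 3 per group) against IgG and 6.40 (SE 0.25) against untreated cells, or 84.7-fold in both. It was 6.25 in both comparisons without IgA replicate 3, the library with the high mitochondrial share. IgG itself left CCL20 at a log2 fold change of 0.00 (SE 0.29) against untreated cells.

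CCL20 also rose with both antigen-specific antibodies, in the second series. Its normalised counts were 559.8, 389.6 and 386.8 with BDNF IgA, 605.2, 761.0 and 614.9 with TSPAN7 IgA, and 240.1, 295.4 and 257.4 in untreated cells. The 3 groups did not overlap. The log2 fold change was 0.75 (SE 0.13, adjusted p = 0.000997, edgeR) with BDNF IgA and 1.32 (SE 0.13, adjusted p = 4.9e-07, edgeR) with TSPAN7 IgA, both against the same untreated libraries. Between the antibodies CCL20 was higher with TSPAN7 IgA by a log2 fold change of 0.57 (SE 0.12, adjusted p = 0.00633, edgeR). That last call was lost without TSPAN7 IgA replicate 2, where the log2 fold change was 0.46 (adjusted p = 0.0711, with a range of 8.43e-08 to 0.0711 over its 17 alternatives). Untreated cells of the second series had 264 ± 28.3 normalised counts of CCL20 (SD, n = 3) and those of the first 31.5 ± 4.95, on separate scales.

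**Figure D1:**
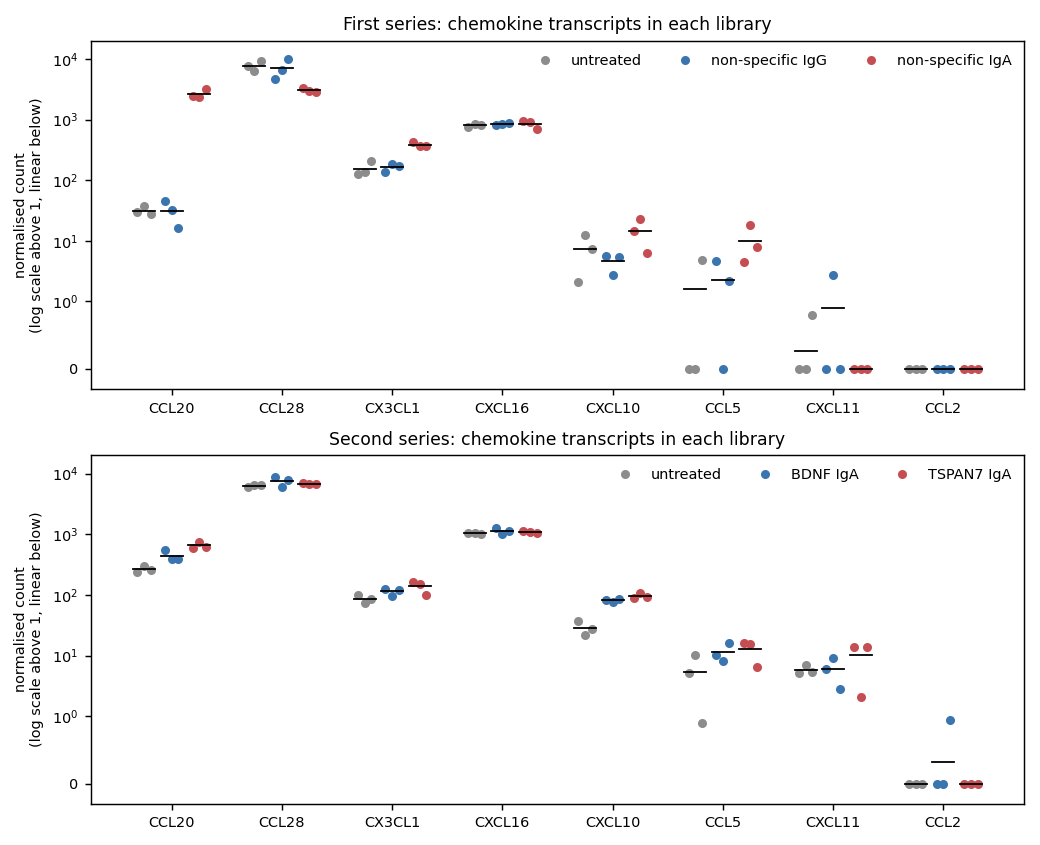
Normalised counts (vertical axis, logarithmic above 1 and linear below) of the 8 chemokines in each of 9 libraries of the first series (top) and of the second (bottom). Points are libraries coloured by group and black lines are group means; CCL20 with non-specific IgA lies between 2384 and 3215 against 16.5 to 44.8 in the other first-series libraries.

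CCL28 (ENSG00000151882, chr5:43376747-43412493) moved the other way with non-specific IgA. Its normalised counts were 3345, 3002 and 2886 with IgA, 4749, 6575 and 9918 with IgG, and 7564, 6233 and 9311 in untreated cells. All IgA libraries were below all others. CCL28 fell by a log2 fold change of -1.20 against IgG (SE 0.22, adjusted p = 0.00194, edgeR) and of -1.32 against untreated cells (SE 0.22, adjusted p = 0.00099, edgeR), which is to 0.435 and 0.400 of the reference level. These calls held in all 17 alternatives, with log2 fold changes from -1.43 to -0.88 and from -1.53 to -1.16.

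With the antigen-specific antibodies CCL28 was not called lower. It had 8665, 6056 and 7951 normalised counts with BDNF IgA, 6933, 6707 and 6834 with TSPAN7 IgA, and 5933, 6429 and 6486 in untreated cells. BDNF IgA replicate 2 lay inside the untreated range, while the TSPAN7 IgA libraries lay just above it. The log2 fold change was 0.27 with BDNF IgA (SE 0.08, adjusted p = 0.0449, edgeR) and 0.12 with TSPAN7 IgA (SE 0.08, adjusted p = 0.418, edgeR). The BDNF IgA call was lost with DESeq2 (adjusted p = 0.170), in a fit of only the 6 libraries compared (0.0963) and on leaving out any library of the series but BDNF IgA replicate 2, over a range of 6.45e-07 to 0.288.

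CX3CL1 (ENSG00000006210, chr16:57406389-57418956) was higher with non-specific IgA. Its normalised counts were 430.5, 366.7 and 366.5 with IgA, 137.2, 182.1 and 172.4 with IgG, and 126.7, 135.4 and 203.8 in untreated cells. The IgA group stood clear of the others, which overlapped each other. CX3CL1 rose by a log2 fold change of 1.24 against IgG (SE 0.21, adjusted p = 0.00132, edgeR) and 1.32 against untreated cells (SE 0.21, adjusted p = 0.000824, edgeR). Both calls held in all 17 alternatives, with log2 fold changes of 1.01 to 1.32 and 1.11 to 1.57.

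With the antigen-specific antibodies CX3CL1 had 127.3, 95.9 and 118.8 normalised counts (BDNF IgA), 164.8, 150.7 and 100.7 (TSPAN7 IgA) and 98.3, 73.8 and 86.7 (untreated). The TSPAN7 IgA group lay above the untreated one by the margin of its replicate 3, and the BDNF IgA group overlapped both. CX3CL1 rose with TSPAN7 IgA by a log2 fold change of 0.69 (SE 0.19, adjusted p = 0.0235, edgeR), and its log2 fold change with BDNF IgA was 0.40 (SE 0.19, adjusted p = 0.217, edgeR). The TSPAN7 IgA call was lost without TSPAN7 IgA replicate 1 (adjusted p = 0.130) or 2 (0.112) or untreated replicate 2 (0.114) or 3 (0.0731), where the log2 fold change was 0.54, 0.63, 0.59 and 0.69, over a range of 0.00174 to 0.130. The antibodies did not differ past the threshold for CX3CL1 (log2 fold change 0.29, SE 0.18, adjusted p = 0.380, edgeR).

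CXCL16 (ENSG00000161921, chr17:4636828-4643223), the other membrane-bound chemokine, was the member with the most even level. It had 949.7, 912.4 and 691.9 normalised counts with non-specific IgA, 824.1, 841.3 and 872.9 with IgG, and 744.4, 834.9 and 821.8 in untreated cells. Its counts in the second series were 1264, 1003 and 1115 with BDNF IgA, 1148, 1098 and 1065 with TSPAN7 IgA, and 1050, 1052 and 1024 in untreated cells. Only the TSPAN7 IgA and untreated groups were free of overlap. Its log2 fold changes in the 6 comparisons ran from -0.03 to 0.11 with standard errors of 0.07 to 0.13, and none passed (adjusted p from 0.382 to 1.00, edgeR). With library size alone as the scaling, which moved the median of all genes to -0.25 against IgG and -0.22 against untreated cells, its log2 fold change with IgA became -0.21 and -0.10.

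CXCL10 (ENSG00000169245, chr4:76942271-76944650) and CXCL11 (ENSG00000169248, chr4:76954835-76962568), the CXCR3 ligands, lie 10184 bases apart. CXCL10 was sparse in the first series, with 14.6, 23.0 and 6.3 normalised counts with non-specific IgA, 5.6, 2.7 and 5.5 with IgG, and 2.1, 12.6 and 7.3 in untreated cells. Its IgA libraries lay above the IgG libraries by a narrow margin and overlapped the untreated ones. The log2 fold change was 1.68 against IgG (SE 0.79, adjusted p = 0.138, edgeR) and 1.00 against untreated cells (SE 0.74, adjusted p = 0.357, edgeR), so neither passed the threshold. CXCL10 rose with both antigen-specific antibodies. It had 83.9, 75.9 and 86.5 normalised counts with BDNF IgA, 87.9, 106.5 and 92.0 with TSPAN7 IgA, and 36.5, 22.3 and 27.1 in untreated cells. Each treated library exceeded each untreated one, and the TSPAN7 IgA libraries lay above the BDNF IgA libraries. The log2 fold change was 1.52 with BDNF IgA (SE 0.22, adjusted p = 0.000132, edgeR) and 1.74 with TSPAN7 IgA (SE 0.22, adjusted p = 1.77e-05, edgeR), or 2.87-fold and 3.33-fold, and both calls held in all 17 alternatives. The antibodies differed by 0.22 (SE 0.19, adjusted p = 0.558, edgeR). CXCL11 had no count with non-specific IgA, 0, 3 and 0 counts with IgG and 0, 0 and 1 in untreated cells. It had 6, 9 and 3 counts with BDNF IgA, 14, 2 and 13 with TSPAN7 IgA and 5, 7 and 6 in untreated cells of the second series, which overlapped and were too few for the test. CXCL9, the remaining CXCR3 ligand, had 0 counts in every library.

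CCL5 (ENSG00000271503, chr17:34198495-34207797) had 4, 18 and 5 counts with non-specific IgA, 5, 0 and 2 with IgG and 0, 0 and 6 in untreated cells, and was left out of the test there by the filter on low counts. It had 10, 8 and 17 counts with BDNF IgA, 16, 15 and 6 with TSPAN7 IgA, and 5, 10 and 1 in untreated cells of the second series. Both treated groups overlapped the untreated one. The log2 fold changes of 1.11 (SE 0.60, adjusted p = 0.292, edgeR) and 1.27 (SE 0.59, adjusted p = 0.211, edgeR) did not pass. CCL2 (ENSG00000108691, chr17:32582293-32584227) had 1 count in BDNF IgA replicate 3 and 0 in every other library, where 0 counts allow a level of up to 3 counts per library.

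Counted over the members, 5 of 8 passed the filter on low counts in the libraries of the first series and 6 of 8 in those of the second. CCL20 with non-specific IgA was left out of the counts, which leaves 4 members there. Against IgG, 2 of these 4 were called with non-specific IgA (CX3CL1 higher, CCL28 lower), beside 24.2% of all 18012 genes tested, and those and CXCL10 had groups that did not overlap, beside 40.3% of all genes. Against untreated cells CX3CL1 and CCL28 were again called, beside 25% of all genes, and both did not overlap, beside 39.9%. IgG against untreated cells called none of the members and none of 18012 genes (0%) with edgeR, and DESeq2 called 0 as well. Of these genes 89, or 0.494%, had an unadjusted p under 0.05 (edgeR), a smaller share than that threshold gives when nothing differs. The test was therefore conservative for this pair, and the lack of calls does not show that IgG had no effect. No member was free of overlap there, beside 6.75% of all genes. With BDNF IgA 3 of 6 were called (CCL20, CXCL10 and CCL28), beside 7.67% of all 18732 genes, and CCL20 and CXCL10 did not overlap, beside 24.8%. With TSPAN7 IgA 3 of 6 were called (CCL20, CXCL10 and CX3CL1), beside 8.54%, and 5 of 6, all but CCL5, did not overlap, beside 28.4%. Between the antibodies only CCL20 of 6 was called, beside 7.92%, and CCL20 and CXCL10 did not overlap, beside 23.6%. These shares cannot be read as a result about the members, since the choice of members drew on the same data.

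**Figure D2:**
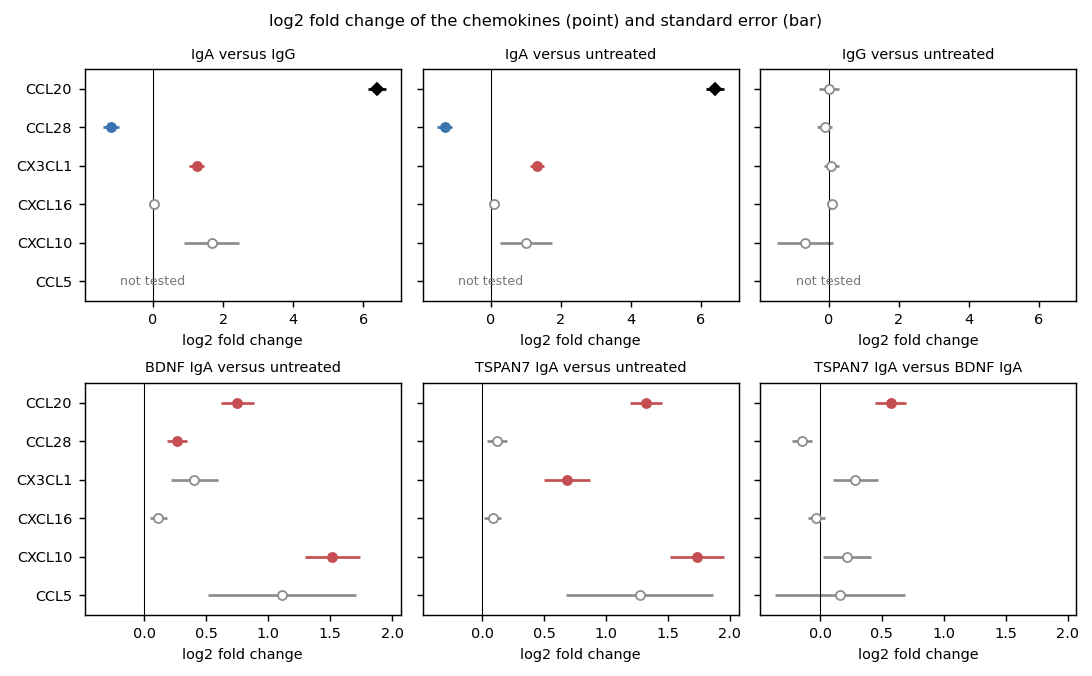
Log2 fold change (horizontal axis, point) with its standard error (bar) for 6 chemokines in the 6 comparisons, on one scale for the first series (top) and another for the second (bottom). Red and blue points passed higher and lower, open grey points did not pass, and black diamonds mark CCL20 with non-specific IgA, which is given without a test; CCL20 stands at 6.40 in both, CCL28 at -1.20 and -1.32.

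Levels of different genes were compared as CPM per kilobase of the longest annotated transcript. In untreated cells CCL28 was the highest, at 73.0 ± 14.3 (first series) and 47.2 ± 2.25 (second series, SD, n = 3), followed by CXCL16 at 10.2 ± 0.478 and 10.5 ± 0.199. CCL20 came next at 1.11 ± 0.172 in the first series, where it overlapped CX3CL1 at 0.792 ± 0.207, and at 7.39 ± 0.811 in the second. With non-specific IgG the order of the 8 genes was the same as in untreated cells of that series. With non-specific IgA the order changed at the top. CCL20 reached 81.0 ± 5.43 CPM per kilobase, above CCL28 at 25.3 ± 3.79 and CXCL16 at 9.48 ± 2.37, with no overlap between these neighbours. With BDNF IgA CCL28 stayed highest at 57.4 (46.2 to 65.5), and CCL20 at 12.6 ± 2.75 overlapped CXCL16 at 11.5 ± 1.29. With TSPAN7 IgA CCL20 was second at 18.5 ± 2.34, between CCL28 at 51.3 ± 1.15 and CXCL16 at 11.2 ± 0.460, again without overlap. These levels depend on the length used. With all exons of a gene in place of the longest transcript, CCL20 with non-specific IgA was 42.6 ± 2.86 CPM per kilobase and still above CCL28 at 17.5 ± 2.62. It then came below CX3CL1 in untreated cells and with IgG in the first series, overlapping it in both, and below CXCL16 with BDNF IgA (6.63 ± 1.45 against 9.58 ± 1.07, without overlap), and with TSPAN7 IgA it overlapped CXCL16.

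Taken as shares of the summed level of the 8 genes, the message in untreated cells was mainly CCL28, at 85.3% ± 2.85 (first series) and 71.2% ± 1.04 (second series, SD, n = 3). With non-specific IgG it was 82.8% ± 5.25. CCL20 made up 1.35% ± 0.432 of the sum in untreated cells of the first series and 1.59% ± 1.09 with IgG. With non-specific IgA CCL20 made up 68.7% ± 5.29 and CCL28 21.4% ± 3.04. In the second series the CCL20 share was 11.2% ± 0.836 in untreated cells, 15.0% ± 1.90 with BDNF IgA and 22.0% ± 2.44 with TSPAN7 IgA, groups whose ranges did not overlap. The CXCL10 share there was 0.870% ± 0.257, 2.00% ± 0.235 and 2.28% ± 0.190. These are shares of transcript level, not of secreted protein, and a share falls when another gene rises.

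**Figure D3:**
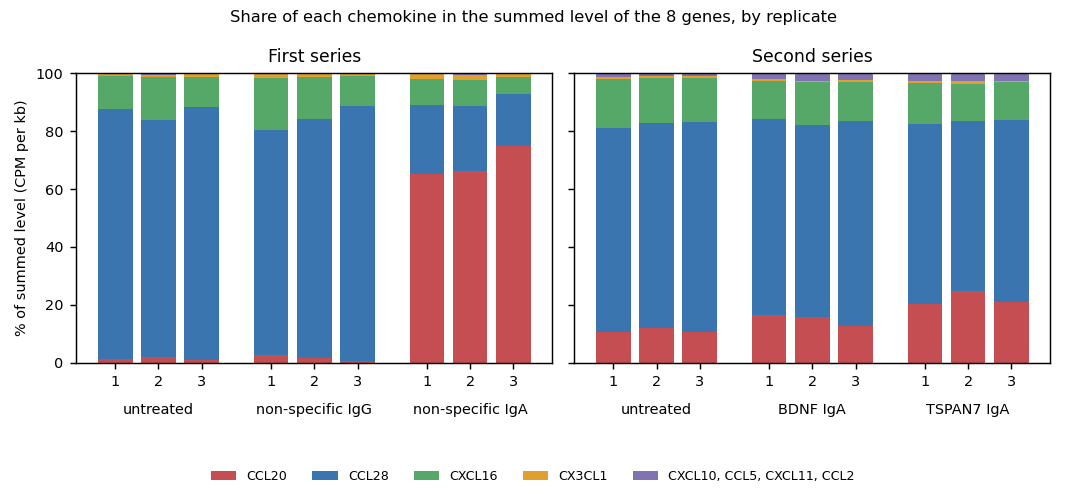
Share of each chemokine (stacked bars, percent of the summed CPM per kilobase of the 8 genes) in replicates 1 to 3 of each group. CCL20 (red) makes up 65.0% to 74.7% with non-specific IgA and at most 2.73% in the other first-series libraries, while CCL28 (blue) is the largest share elsewhere.

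Most receptors of these chemokines were at low or undetected levels. Of 12 receptors listed, 11 had a row and 4 were tested (CCR1, CCR3, ACKR2 and ACKR3). ACKR1 was not analysed here. CCR6, the receptor of CCL20, had 0 counts in every library. CCR1, a receptor of CCL5, had 23, 22 and 13 counts with non-specific IgA, 38, 77 and 47 with IgG, and 54, 71 and 60 in untreated cells, and it fell by a log2 fold change of -1.19 against IgG (SE 0.37, adjusted p = 0.0313, edgeR) and -1.25 against untreated cells (SE 0.36, adjusted p = 0.0241, edgeR). It rose with BDNF IgA by 1.00 (SE 0.21, adjusted p = 0.00496, edgeR), where it had 137, 78 and 132 counts against 48, 53 and 75 in untreated cells. ACKR2, a scavenger that clears inflammatory CC chemokines, had 129, 141 and 110 counts with non-specific IgA, 304, 462 and 402 with IgG, and 446, 468 and 509 in untreated cells. It fell by -1.32 against IgG (SE 0.19, adjusted p = 0.000514, edgeR) and by -1.47 against untreated cells (SE 0.19, adjusted p = 0.000221, edgeR). No receptor passed with TSPAN7 IgA against untreated cells or against BDNF IgA. The 2 receptors called of 4 tested with non-specific IgA stand beside 24.2% and 25% of all genes, and the 1 called with BDNF IgA beside 7.67%. The median log2 fold change of the 4 tested was -0.73 against IgG and -0.78 against untreated cells with non-specific IgA, 0.63 with BDNF IgA and 0.20 with TSPAN7 IgA, beside -0.01 to 0.00 for all genes.

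Among the 6 genes for shedding or trimming, all tested, the changes that were called were small. RHBDF1 had larger changes with non-specific IgA that were not called. They were 0.88 against IgG (SE 0.33, adjusted p = 0.0704, edgeR) and 0.66 against untreated cells (SE 0.33, adjusted p = 0.161, edgeR), with overlapping groups. None passed between non-specific IgA and IgG. DPP4, the peptidase that trims CXCR3 ligands, rose against untreated cells by a log2 fold change of 0.50 (SE 0.16, adjusted p = 0.0346, edgeR). Against IgG it stood at 0.45 (SE 0.16, adjusted p = 0.0567, edgeR), with groups that did not overlap. With BDNF IgA 3 of the 6 rose, beside 7.67% of all genes called, ADAM10 by 0.22 (SE 0.04, adjusted p = 0.00261, edgeR), ADAM17 by 0.22 (SE 0.06, adjusted p = 0.0176, edgeR) and their inhibitor TIMP3 by 0.25 (SE 0.06, adjusted p = 0.0109, edgeR). With TSPAN7 IgA ADAM10 rose by 0.21 (SE 0.04, adjusted p = 0.00339, edgeR), and TIMP3 was lower than with BDNF IgA by -0.30 (SE 0.06, adjusted p = 0.00317, edgeR).

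Of 22 further chemokines that attract lymphocytes or monocytes, 16 had 3 counts or fewer in every library of the first series, and 16 in the second. The filter left 2 to be tested in the first series, CXCL12 and CXCL17, and CXCL17 alone in the second, and none was called in any of the 6 comparisons. CXCL12, the ligand of CXCR4, had 4, 0 and 4 counts with non-specific IgA, 16, 21 and 16 with IgG and 5, 4 and 14 in untreated cells (log2 fold change -2.32 against IgG, SE 0.88, adjusted p = 0.0723, edgeR).

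Most of the tested cytokines that induce chemokines rose with IgA. Of 10 listed, 5 were tested, and 4 were called higher with non-specific IgA against IgG and against untreated cells (median log2 fold change of the 5 tested 5.09 and 4.47, or 4.51 and 4.47 with IL1B at its bound, beside -0.01 for all genes in both), beside 24.2% and 25% of all genes called. Of these 4, IL1B and IL17C passed the filter on low counts only through the IgA libraries, where they were high. Their calls were partly fixed by that filter, and the list was chosen with earlier results of these data known. The 4 calls therefore cannot be read as a result about the list. TNF had 865, 1076 and 650 counts with IgA, 47, 30 and 16 with IgG, and 27, 37 and 19 in untreated cells (log2 fold change 5.09 against IgG, SE 0.29, adjusted p = 2.85e-07, edgeR). IL1A had 518, 546 and 637 counts with IgA against 17 to 23 with IgG (log2 fold change 5.12, SE 0.36, adjusted p = 1.93e-06, edgeR). IL1B had 54, 41 and 63 counts with IgA and 0 to 3 in the IgG and untreated libraries, so that it was at least 22.8-fold higher than a floor of 3 counts per library with IgG and at least 25.0-fold higher than that floor in untreated cells. IL17C had 40, 26 and 12 counts with IgA, 0, 3 and 4 with IgG and 0 to 7 in untreated cells. Its log2 fold change against IgG was 3.63 (SE 1.07), given as a description. TNF, IL1A and IL1B were called with both antigen-specific antibodies, by 0.87, 1.39 and 1.84 with BDNF IgA and by 1.09, 1.48 and 2.07 with TSPAN7 IgA (SE 0.18 to 0.49, adjusted p from 1.44e-05 to 0.0229, edgeR). IL1B passed the filter there only through the treated libraries, at 11 to 22 counts against 3 to 5 in untreated cells. Its calls were thus partly fixed by that filter. The 3 called of 5 tested stand beside 7.67% and 8.54% of all genes called. None of the cytokines differed past the threshold between the antibodies. The fifth gene tested, the epithelial interferon IFNE, had 6, 25 and 0 counts with non-specific IgA, 17, 46 and 49 with IgG, and 24, 33 and 82 in untreated cells, and these groups overlapped. Its log2 fold change was -1.70 against IgG (SE 0.80, adjusted p = 0.140, edgeR) and -1.80 against untreated cells (SE 0.80, adjusted p = 0.115, edgeR), and it was not called in any of the 6 comparisons. The interferons IFNG, IFNB1, IFNL2 and IFNL3 had 4 counts or fewer in every library.

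Several transcription factors of the NF-kB and interferon pathways rose with IgA. Of 13 listed, all tested, 9 rose with non-specific IgA in both comparisons and none fell, beside 24.2% and 25% of all genes called. They were NFKB1, NFKB2, RELB, REL, NFKBIZ and BCL3 of the NF-kB family and its co-regulators, and IRF1, IRF2 and IRF7. The values against IgG ran from 0.61 for IRF2 (SE 0.11, adjusted p = 0.00181, edgeR) to 1.74 for RELB (SE 0.17, adjusted p = 3.48e-05, edgeR). Among those not called against IgG and untreated cells, STAT2 (-0.33 and -0.32) and IRF9 (-0.56 and -0.13) were lower. RELA (0.06 and 0.02) and IRF3 (0.37 and 0.41), also not called, were higher. Of the 13, 6 rose with each antigen-specific antibody against untreated cells, beside 7.67% (BDNF IgA) and 8.54% (TSPAN7 IgA) of all genes called. IRF7 rose by 1.10 and 1.00, IRF9 by 1.12 and 0.95, and STAT2 by 0.53 and 0.27. NFKB2 rose by 0.32 and 0.30 and NFKBIZ by 0.37 and 0.35, while RELA did not pass in any comparison. RELB was called with BDNF IgA (0.36, SE 0.10, adjusted p = 0.0265, edgeR) and IRF1 with TSPAN7 IgA (0.17, SE 0.05, adjusted p = 0.0413, edgeR). The median of the 13 was 1.10 and 0.89 with non-specific IgA against IgG and untreated cells, and 0.15 and 0.17 with BDNF IgA and TSPAN7 IgA, beside medians of all genes from -0.01 to 0.00. Between the antibodies STAT2 alone of the 13 was called, beside 7.92% of all genes. It was lower with TSPAN7 IgA by -0.26 (SE 0.07, adjusted p = 0.0249, edgeR). Whether the first and the second series differed in these responses was not tested.

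**Figure D4:**
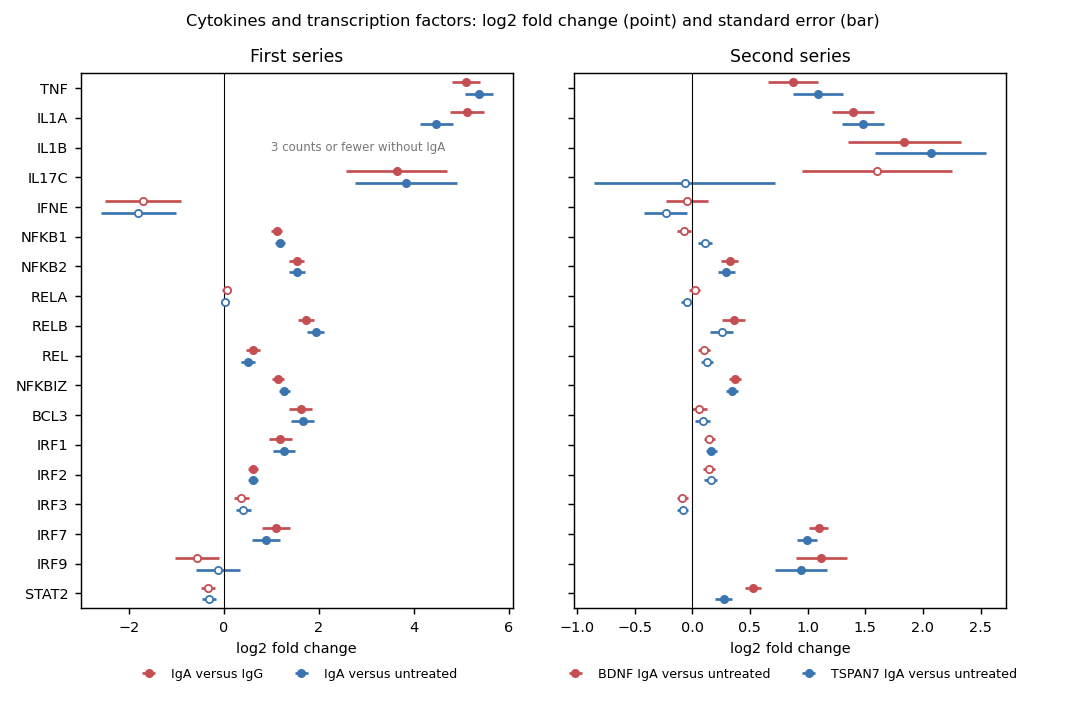
Log2 fold change (horizontal axis, point) with its standard error (bar) of the tested cytokines and transcription factors with non-specific IgA (left) and with the antigen-specific antibodies (right, another scale). Filled points passed the test and open points did not. IL17C (left) and IL1B (right) passed the filter on low counts only through libraries with IgA. IL1B is left out on the left because its reference libraries held 3 counts or fewer, and IRF7 stands at 1.10 and 1.00 on the right.

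The genes whose levels followed CCL20 most closely were found among 13343 genes with at least 50 normalised counts in both series, by the mean of the Pearson correlations of log2 CPM over the 9 libraries of each series. They were LAMA3 (r = 0.97 and 0.97 in the first and second series), CLDN1 (0.98 and 0.97), SMAD3 (0.99 and 0.96), PLK2 (0.97 and 0.97) and IL8 (0.99 and 0.94). LAMA3 encodes a laminin chain, CLDN1 a tight-junction protein, SMAD3 a TGF-β signal transducer, PLK2 a kinase and IL8 the neutrophil chemokine now named CXCL8. CXCL10 was followed most closely by NID2 (0.83 and 0.96), FBLIM1 (0.83 and 0.94), NFE2L3 (0.82 and 0.94), STPG1 (0.83 and 0.90) and NT5C2 (0.74 and 0.98). These correlations describe 9 libraries in 3 groups that share their treatment, and in the first series the CCL20 values rest on the gap between the IgA libraries and the rest.

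Most markers of other cell types were at or near 0, and COL1A1, CDH5 and PTPRC were called in 1 comparison each. In bulk RNA fewer cells of a type and less RNA per cell cannot be told apart. The 7 leukocyte markers summed to 0.967 to 2.02 CPM with non-specific IgA, 1.41 to 1.72 with IgG and 1.53 to 1.69 in untreated cells, and in the second series to 1.43 to 1.49 with BDNF IgA, 1.39 to 1.66 with TSPAN7 IgA and 0.667 to 1.69 in untreated cells. CD3E, MS4A1 and ITGAM had 3 counts or fewer in every library. PTPRC alone of them was called, with TSPAN7 IgA, at 23, 24 and 10 counts against 6, 7 and 10, beside 8.54% of all genes called. PTPRC passed the filter on low counts there only through the treated libraries, so its call was partly fixed by that filter. Among the 3 fibroblast markers COL1A1 was higher with non-specific IgA than with IgG (log2 fold change 0.64, SE 0.18, adjusted p = 0.0215, edgeR), while COL3A1 and PDGFRB had 0 to 7 counts in every library. The 3 summed to 21.8 to 29.8 CPM with non-specific IgA, 19.2 to 21.0 with IgG and 18.9 to 25.1 in untreated cells. Of the endothelial markers VWF and CDH5 (PECAM1 was not analysed here), CDH5 had 14, 40 and 9 counts with IgA, 5 to 13 with IgG, and 1, 6 and 4 in untreated cells. Its log2 fold change against untreated cells was 2.84 (SE 0.77). CDH5 passed the filter on low counts only through the IgA libraries, so its call was partly fixed by that filter. The endothelial pair summed to 0.430 to 1.94 CPM with IgA and 0.845 to 1.32 in untreated cells. The part of these genes in the chemokine levels was not tested. Of the 8 carcinoma or epithelial markers, 4 were called with non-specific IgA both against IgG and against untreated cells, beside 24.2% and 25% of all genes. WT1 was lower (log2 fold change -1.17 against IgG, SE 0.23, adjusted p = 0.00348, edgeR), as was KRT8 (-0.37, SE 0.11, adjusted p = 0.0304, edgeR). KRT7 was higher (0.43, SE 0.09, adjusted p = 0.00539, edgeR), as was PAX8 (0.34, SE 0.11, adjusted p = 0.0441, edgeR). With BDNF IgA PAX8 (log2 fold change 0.16), KRT7 (0.24) and CDH1 (0.26) were called higher than in untreated cells, beside 7.67% of all genes called. With TSPAN7 IgA KRT7 was called higher (0.54) and WT1 (-0.30) and MUC16 (-0.47) lower, beside 8.54%. Against BDNF IgA, TSPAN7 IgA had KRT7 higher (0.30) and WT1 (-0.31), MUC16 (-0.66) and CDH1 (-0.35) lower, beside 7.92% of all genes called.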

How the data were processed

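Chemokine transcripts were measured by RNA sequencing in 18 OVCAR3 libraries, 3 in each of 6 groups taken from the sample titles. Per the methods, the authors removed adaptors with cutadapt, used STAR for alignment to GRCh37 and featureCounts for the counts of uniquely mapped reads per gene, while the submitters' processing notes name cutadapt 1.8.1 and HTSeq 0.6.1. The deposited values are raw counts with no normalization. Strand-specific counting is not stated, so overlapping and antisense genes may share reads. In the second series 2055 exact duplicate rows were removed.

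Each whole table was fitted with edgeR 4.0.16 in R 4.3.3 (TMM, filterByExpr, quasi-likelihood F test, two-sided, Benjamini-Hochberg over the 18012 or 18732 genes tested), with calls made below an adjusted p of 0.05. Standard errors were obtained as the size of the log2 fold change over the root of F. Normalised counts refer to the average effective size of the libraries of a series. Correlations used log2 CPM with a prior count of 2. The floor of detection was taken as 3 counts, which covers counting error only, since reads carry no molecular identifiers. No replicate was a copy of another, since all pairs within groups differed beyond sampling noise (chi-square per degree of freedom 4.16 to 259). The fit was tested on simulated data with a tolerance for false calls wider than 0.05, so that test does not establish the error rate of the calls. Alternatives were other scalings and filters, DESeq2 1.42.0, no mitochondrial genes, the 6 libraries compared alone, a replicate block, each replicate left out and another transcript length.

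The members and gene lists were chosen with earlier results of these data known. Text names all 8 members, listed genes that were called, and the 5 genes most like CCL20 and CXCL10. Genes named without a call, such as CXCL9, CXCL12, CCR6, RHBDF1, RELA, IRF3, IFNE and the other interferons, were added after their values were seen. Gene positions are from GENCODE on GRCh37, and promoters from RefSeq on GRCh38.p14, which held entries for 4 of the 8 members. Of the gene lists, 2 genes are not reported here.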

Additional observations from a re-analysis of the deposited data

How the results depend on the processing

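Of 550 single-gene values recomputed under the alternatives, 509 counted as unchanged, 15 lost a call, 2 gained one and 24 turned their direction. Unchanged meant the same direction and the same side of the threshold. For CCL20 with non-specific IgA, which has no test, it meant a log2 fold change within the replicate SD of the main value. That rule covered 17 alternatives against IgG and 17 against untreated cells. A further 3 CCL5 values had no adjusted p in DESeq2. With non-specific IgA, where CCL20 is given without a test, CCL28 and CX3CL1 kept their calls in all 17 alternatives of both comparisons. With BDNF IgA and with TSPAN7 IgA the number of chemokines called against untreated cells stayed within 1.5 times. Between TSPAN7 IgA and BDNF IgA, 1 became 2 with no filter on low counts (CCL20 and CCL28, CCL28 with adjusted p = 0.0382, edgeR). On leaving out a replicate it ran from 0 (without TSPAN7 IgA replicate 2) to 2 (without BDNF IgA replicate 2, CCL28 log2 fold change -0.28). With the exon-union length instead of the longest transcript, 6 of 48 ranks of level changed. The cause was not tested.

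The values that turned were all uncalled. CCL20 between IgG and untreated cells was -0.0029 with DESeq2 size factors, -0.0055 with DESeq2, -0.013 in the fit of 6 libraries, -0.00023 without mitochondrial genes and -0.0048 with the replicate block, and -0.35 to 0.28 on leaving out a replicate. CXCL16 with non-specific IgA was -0.21 against IgG and -0.10 against untreated cells with library size alone, -0.0011 against IgG with no filter, and -0.076 to 0.14 against IgG on leaving out a replicate. On leaving out a replicate, CCL28 and CX3CL1 between IgG and untreated cells ran from -0.44 to 0.099 and from -0.050 to 0.32, and CXCL16 and CCL5 between the antigen-specific antibodies from -0.11 to 0.060 and from -0.037 to 0.50.

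Deviations of samples with the same replicate number had correlations from -0.0686 to 0.247 (first series) and -0.0168 to 0.0887 (second series). For samples with different numbers the range was -0.210 to 0.143 (first series) and -0.0769 to 0.0533 (second series). These ranges overlapped, with the highest value of each series at a shared number. Whether samples with the same number were prepared together was not tested. With the replicate block CCL28 and CX3CL1 were called with non-specific IgA against IgG and against untreated cells, as without it. CCL20 is left out of these comparisons, since it is given there without a test. The block left the number of chemokines called at 0 for IgG against untreated cells. It also left 3 with BDNF IgA, 3 with TSPAN7 IgA and 1 between the antibodies. Over all genes the block gave more calls with BDNF IgA (1655), with TSPAN7 IgA (1759) and between the antibodies (1728). It gave fewer between IgA and IgG (4340) and between IgA and untreated cells (4428). Over all genes, leaving out a replicate gave 2566 to 5286 calls between IgA and IgG (4360 with all), 2601 to 5229 between IgA and untreated (4503), 734 to 2798 with BDNF IgA (1437), 757 to 2304 with TSPAN7 IgA (1600) and 482 to 3276 between the antibodies (1484), with the highest counts without non-specific IgA replicate 2 and without BDNF IgA replicate 2. With library size alone 19.4% of calls against IgG and 23.3% against untreated cells were higher, against 51.9% and 51.4%. CXCL11, CCL2 and, in the first series, CCL5 had too few counts to be tested.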
